A study of Mus musculus with 19 samples.

Results

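RNA-seq counts of 9 nuclear receptor genes were followed across 19 mouse skin libraries: Esr1 and Esr2, which encode the oestrogen receptors alpha and beta, Pgr (progesterone receptor), Nr3c1 (glucocorticoid receptor), Nr3c2 (mineralocorticoid receptor), Vdr (vitamin D receptor), Ppard (the lipid sensor PPAR delta), Rarg (retinoic acid receptor gamma) and Thrb (thyroid hormone receptor beta). They were taken by symbol from a table of 34807 genes, and all 9 were measured and passed the filter on low counts. The choice was made with values in view, since Esr1 had been seen to differ between K5 and K14 tumours. The difference between those 2 groups is therefore described here without a test, and no test of Esr1 in either group is read as a result. The other members were tested in each of those groups against skin and against Ivl tumours. The libraries came from 6 Ivl, 5 K5 and 4 K14 skin tumours and 4 samples of normal skin, all from female mice. In each tumour model BRAFV600E was switched on by tamoxifen-inducible CreERT2, expressed from the promoter of Ivl (a marker of suprabasal and committed keratinocytes), Krt5 or Krt14 (both markers of basal keratinocytes). Normal skin was wild type and came from littermates, and all mice were on a C57BL/6J background. The labels give an age of 7 to 20 weeks for all samples, normal skin included, without saying whether it is the age at induction or at sampling, and the study's methods give a narrower range at induction. According to the study, Ivl tumours appeared much later after induction than K5 and K14 tumours. Time since induction, and with it age at sampling, therefore cannot be told apart from model. The inducer was spread on shaved back skin, tamoxifen in Ivl mice and 4-hydroxytamoxifen in K5 and K14 mice, so inducer and model cannot be told apart. K5 and K14 tumours were also pooled as 1 group, K5/K14.

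Nuclear receptors are transcription factors that bind small lipid-soluble ligands. Steroid receptors wait in a complex with heat shock proteins and bind DNA as homodimers once hormone reaches them, whereas the receptors for vitamin D, retinoic acid, thyroid hormone and fatty acids sit on DNA as heterodimers with a retinoid X receptor. In skin, glucocorticoids restrain inflammation and keratinocyte division, vitamin D and retinoic acid steer keratinocyte differentiation and the hair cycle, PPAR delta takes part in wound repair and lipid handling, and oestrogen acts on dermal fibroblasts and hair follicles. CreERT2 itself contains a mutated ligand-binding domain of the human oestrogen receptor, and tamoxifen and its 4-hydroxy form are oestrogen receptor ligands. The table gives 1 count per gene, so reads of that fusion that align to Esr1 and reads of Esr1 itself cannot be told apart in it.

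The stretches of DNA just before the listed transcription starts of 5 receptors are shown first, because the largest fold changes below are theirs: Esr1, which has 2 listed starts, Esr2 and Pgr, low in K5/K14 tumours, Nr3c2, which fell, and Ppard, which rose. They are RefSeq sequences of build GRCm38.p6, 250 bases each, written 5′ to 3′ on the gene's strand.
Esr1, first start (chr10:4611739-4611988, plus strand): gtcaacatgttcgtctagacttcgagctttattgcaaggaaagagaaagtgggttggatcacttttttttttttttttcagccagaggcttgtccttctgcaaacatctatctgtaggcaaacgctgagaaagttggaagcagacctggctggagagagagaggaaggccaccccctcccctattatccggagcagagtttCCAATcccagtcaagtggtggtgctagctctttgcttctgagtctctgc
Esr1, second start (chr10:4709908-4710157, plus strand): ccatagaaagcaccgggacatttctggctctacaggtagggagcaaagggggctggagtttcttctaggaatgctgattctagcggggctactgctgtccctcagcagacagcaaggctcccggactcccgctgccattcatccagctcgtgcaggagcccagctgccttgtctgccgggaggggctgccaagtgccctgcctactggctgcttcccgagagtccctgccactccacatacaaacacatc
Esr2 (chr12:76177260-76177509, minus strand): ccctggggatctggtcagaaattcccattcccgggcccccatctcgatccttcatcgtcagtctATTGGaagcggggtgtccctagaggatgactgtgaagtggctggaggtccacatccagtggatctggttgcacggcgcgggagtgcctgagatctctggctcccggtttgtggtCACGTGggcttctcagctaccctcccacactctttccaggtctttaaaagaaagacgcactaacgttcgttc
Pgr (chr9:8899583-8899832, plus strand): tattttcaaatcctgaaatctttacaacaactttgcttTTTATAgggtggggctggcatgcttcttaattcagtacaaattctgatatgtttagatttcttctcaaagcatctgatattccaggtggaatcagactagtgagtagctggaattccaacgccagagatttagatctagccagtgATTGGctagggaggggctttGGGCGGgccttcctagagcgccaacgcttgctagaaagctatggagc
Nr3c2 (chr8:76902080-76902329, plus strand): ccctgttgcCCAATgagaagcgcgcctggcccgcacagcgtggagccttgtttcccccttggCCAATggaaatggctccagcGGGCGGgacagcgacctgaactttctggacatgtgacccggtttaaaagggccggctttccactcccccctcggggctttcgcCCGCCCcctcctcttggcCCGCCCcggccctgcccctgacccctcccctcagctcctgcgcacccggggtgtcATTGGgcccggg
Ppard (chr17:28232504-28232753, plus strand): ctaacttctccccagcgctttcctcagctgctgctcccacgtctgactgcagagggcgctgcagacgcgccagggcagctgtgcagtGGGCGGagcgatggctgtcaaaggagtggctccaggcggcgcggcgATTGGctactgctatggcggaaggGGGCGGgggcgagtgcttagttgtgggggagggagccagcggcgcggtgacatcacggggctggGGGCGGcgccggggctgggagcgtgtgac
Capitals mark matches, on either strand, to 7 short motifs that were searched: the AP-1 site TGANTCA, the nuclear receptor half-site AGGTCA, the palindromic oestrogen response element (GGTCA and TGACC with any 3 bases between), the GC box GGGCGG, the CCAAT box CCAAT, the TATA box TATAAA and the E-box CACGTG. Matches may overlap, as the half-site is part of some response elements. Of 32851 RefSeq promoter windows of this length, 32.7% held a GC box and 33.8% a CCAAT box, and 6.75% held an AP-1 site. The Ppard window held 3 GC boxes and 1 CCAAT box, and the Nr3c2 window 3 of each. The first Esr1 window held only a CCAAT box, the second none of the 7 motifs. The dinucleotide CpG stood at 0.772 of the number its base composition predicts in the Ppard window, 0.601 in the Nr3c2 window, 0.283 and 0.317 in the 2 Esr1 windows, and 0.374 in the median window of the table. A nuclear receptor half-site was found in the windows of Rarg and Thrb (14.0% of all windows) and an oestrogen response element in none of the 11 windows of the 8 members that matched the table (0.0639% of all windows). These matches describe letters only.

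Total counts ran from 45715309 to 72609771 per library, and p-values measure the spread between these samples. According to the study, each K5 or K14 mouse had a single tumour at the end, so those tumours came from different mice, whereas Ivl mice had several. The labels do not tie tumours to mice, so Ivl tumours may share one. The values had been adjusted for a sequencing batch by the authors. Ivl replicates 1, 2 and 3 and K5 replicate 1 carried the trace of that step: their mean lay within 0.1 on the log2 scale of the mean of the other 15 libraries for 96.6% of 13954 genes, against at most 64.1% for any other 4 libraries. The labels do not name the batch of a library, so each member is described over all 19 libraries and over the 15 outside those 4. The mean of Esr1 over these 4 tumours was 32.2 CPM (counts scaled to the library total) and that of Ppard 157, beside 30.8 and 157 over the other 15, which include all 4 skin libraries. Levels below are CPM scaled by the trimmed mean of M values (TMM). The TMM factors were 1.43 to 1.66 in skin and 0.806 to 1.15 in tumours, so this scale puts tumour values higher against skin than library totals do: over 21407 genes with a mean of at least 10 counts, the median log2 fold change was -0.07 (Ivl against skin) and -0.10 (K5/K14 against skin) with TMM, and -0.76 and -0.91 with library totals.

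Per kilobase of exon, Rarg was the most abundant member in every group, and Esr2 or Pgr the least. Over the 15 libraries, Rarg stood in normal skin at 31.7 ± 4.48 CPM per kb (SD, n = 4), rank 2 of 43 nuclear receptors ranked behind Rxra, the shared partner receptor. Below it came Vdr (20.9) and Nr3c1 (17.6), whose libraries overlapped, then Ppard (5.51). Thrb (3.67), Esr1 (2.26), Nr3c2 (1.15), Pgr (0.938) and Esr2 (0.230) followed, each overlapping with the next. In tumours Ppard moved from rank 15 to rank 3 in Ivl, 2 in K5 and 3 in K14 libraries, and in K5 tumours its libraries overlapped with those of Rarg (33.9 ± 4.40 and 36.5 ± 1.1 CPM per kb, SD, n = 4). Nr3c1 moved from rank 5 to 12, 11 and 12. Esr1 took rank 21 in skin, 25 in Ivl, 28 in K5 and 14 in K14 libraries. The gap between its K5 and K14 ranks follows from the contrast on which it was chosen. The plot of receptor genes by group shows the same values for all 43.

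**Figure D1:**
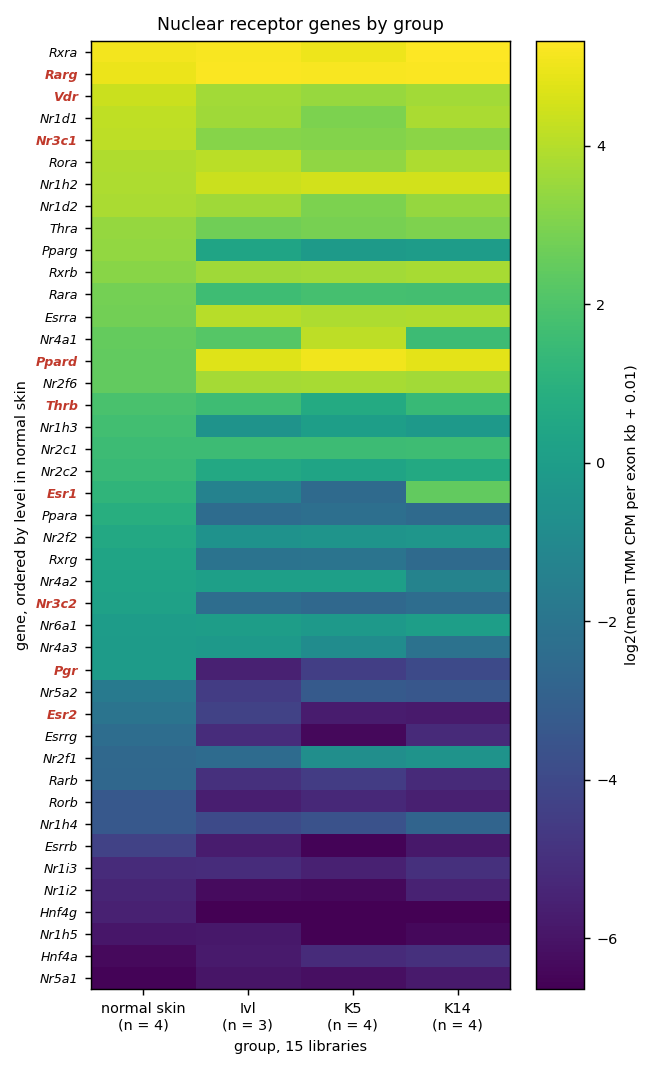
Mean level of 43 nuclear receptor genes in normal skin, Ivl, K5 and K14 tumours over the 15 libraries outside the 4 with the batch trace, as log2 of TMM-scaled CPM per exon kilobase plus 0.01 (colour), ordered by the level in normal skin. The 9 members are in red: Ppard is brighter in all 3 tumour groups than in skin, Pgr and Esr2 are darker, and Esr1 is bright in K14 and dark in K5 tumours.

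Against normal skin, Ppard rose in both tumour groups, and the receptors for glucocorticoids, aldosterone, progesterone and vitamin D fell in K5/K14 tumours. In Ivl tumours 3 of 9 members passed an adjusted p of 0.05 in edgeR's quasi-likelihood test, where 35.9% of all genes tested did (20.4% higher and 15.5% lower): Ppard rose, and Nr3c1 and Nr3c2 fell. Over the 15 libraries 7 of 9 passed (54.9% of all genes): Ppard and Rarg rose, and Esr2, Pgr, Nr3c1, Nr3c2 and Vdr fell. In K5/K14 tumours 7 of the 8 members other than Esr1 passed (62.2% of all genes, 23.2% higher and 38.9% lower), with Ppard up and Esr2, Pgr, Nr3c1, Nr3c2, Vdr and Thrb down, and over the 15 libraries Rarg joined them (8 of 8, 66.2% of all genes). Rarg rose on the TMM scale only and fell with library totals, as given below. The median member log2 fold change was -0.51 in Ivl and -0.86 in K5/K14 tumours, beside -0.46 and -0.60 over all genes tested. Most genes passed in K5/K14 tumours, so the members' count there reads against a high background, and both comparisons share the 4 skin libraries. Libraries did not overlap with skin for 1 of 9 members in Ivl tumours (22.2% of all genes), 7 of 9 over the 15 libraries (57.8%) and 6 of the 8 other than Esr1 in K5/K14 tumours (41.4%).

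**Figure D2:**
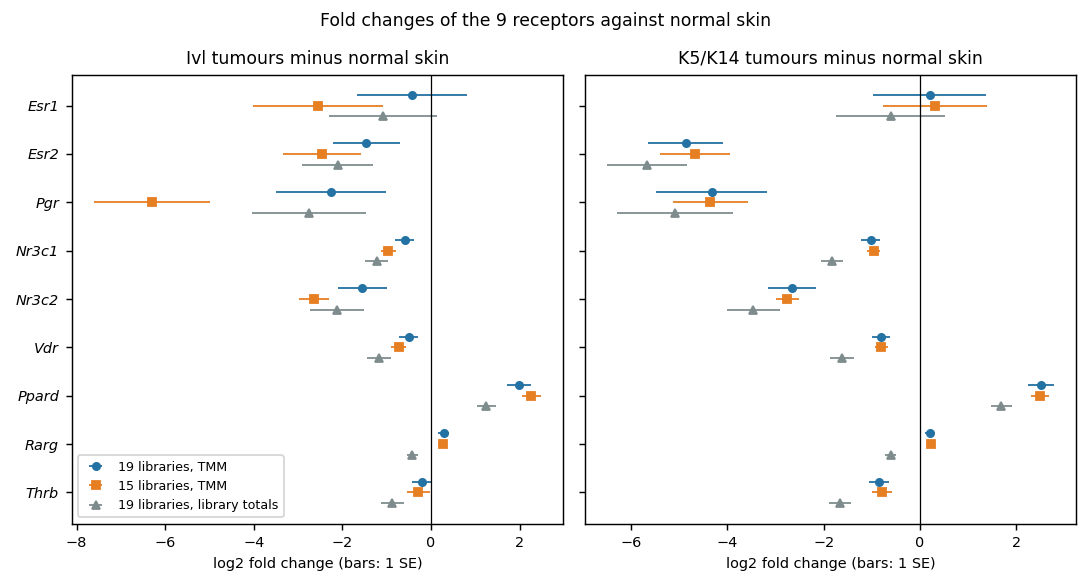
Log2 fold change (x axis) of each of the 9 receptors in Ivl (left) and K5/K14 tumours (right) against normal skin, with 1 standard error, over 19 libraries with TMM scaling (circles), over 15 libraries (squares) and over 19 libraries with library totals (triangles). Ppard lies right of zero and Nr3c1, Nr3c2, Vdr, Esr2 and Pgr left of it under all 3, whereas Rarg changes side with library totals.

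Esr1 (ENSMUSG00000019768, chr10:4611593-5005614, plus strand, GRCm38), oestrogen receptor alpha, was high in K14 tumours and low in K5 tumours, with skin in between and overlapping with K14. It measured 16.3, 28.0, 38.6 and 40.6 CPM in the 4 skin libraries. In K14 replicates 1 to 4 it measured 30.2, 42.9, 110.1 and 114 CPM, and in K5 replicates 1 to 5 it was at 12.7, 2.33, 2.1, 2.68 and 1.81 CPM. The lowest K14 value was thus above the highest K5 value, which belonged to the library with the batch trace. The log2 difference of K5 from K14 was -4.09 ± 1.04 (SE) over 19 libraries and -5.06 ± 0.48 (SE) over 15, which is the contrast that chose the gene. In Ivl tumours the lowest, median and highest values were 4.29, 5.80 and 109.5 CPM. The highest came from Ivl replicate 1, and the other five lay between 4.29 and 7.80 CPM. Against skin, Esr1 did not pass the test in Ivl tumours (log2 fold change -0.43 ± 1.24 SE, edgeR adjusted p = 0.78). In pooled K5/K14 tumours, which mix high and low tumours and for which no test of this gene is given, the value was 0.20 ± 1.17 (SE), and -0.61 with library totals. Over the 15 libraries the Ivl value was -2.55 ± 1.47 (SE, edgeR adjusted p = 0.15). Taken by model, without a test since Esr1 was picked on these tumours, the log2 fold change against skin was -2.83 ± 0.99 (SE) in K5 and 1.27 ± 1.02 (SE) in K14 tumours, and -3.79 ± 0.45 (SE) and 1.27 ± 0.40 (SE) over 15 libraries. With library totals the K14 value shrank to 0.46.

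**Figure D3:**
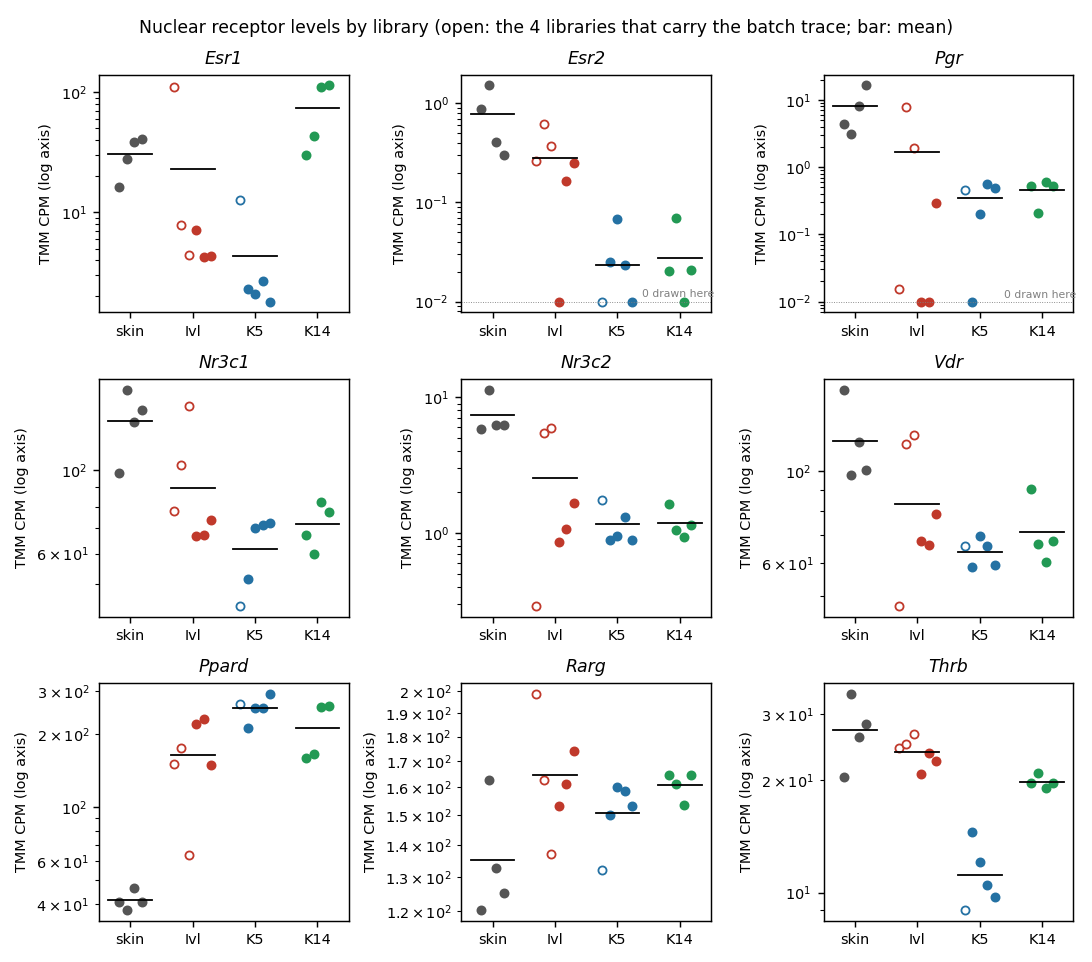
TMM-scaled CPM (log axis) of each receptor in normal skin, Ivl, K5 and K14 libraries, 1 point a library, with the mean as a bar and values of 0 drawn at 0.01. Open points are Ivl replicates 1 to 3 and K5 replicate 1, which often lie apart from the filled points of their group: Ivl replicate 1 holds the highest Esr1 of its group and Ivl replicates 2 and 3 the highest Nr3c2 and Vdr.

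Among 13477 protein-coding genes with a mean of at least 1 CPM in tumours, the gene whose log2 levels followed Esr1 most closely over the 15 tumours was Hoxa9, a homeobox gene that marks position along the body axis (Pearson r = 0.90, as a measure of likeness). It ranked first over the 11 tumours outside the 4 libraries as well (r = 0.92). Among those 11 only the K14 tumours held high levels of either gene. That r therefore largely restates the K14 level on which Esr1 was chosen, in a subset of the same tumours. The r over 15 tumours includes the same K5 and K14 values. Hoxa9 measured 27.0, 35, 14.6 and 21.3 CPM in K14 replicates 1 to 4 and 6.96, 0.0253, 0.0226, 0.0233 and 0.0216 CPM in K5 replicates 1 to 5. In Ivl replicate 1 it stood at 35.5 CPM and in no other Ivl tumour above 0.0234 CPM. The 6 tumours with more than 6 CPM of Hoxa9 were the 6 with the highest Esr1, as the plot of both genes shows. This match includes the K5 and K14 values on which Esr1 was chosen. The tumours of the 6 outside K14, Ivl replicate 1 and K5 replicate 1, carry the batch trace. Mean Esr1 of the 4 libraries with that trace lay near that of the other 15 (32.2 and 30.8 CPM by library totals). Normal skin broke the pattern, with Hoxa9 at 0.141 to 0.978 CPM beside Esr1 at 16.3 to 40.6 CPM. Next in likeness over 15 tumours came Bsn (r = 0.86), Nrde2 (0.81), Hoxa6 (0.80) and Erbb3 (0.79), none of which was among the first 5 over the 11 tumours. The tumours fell into a high and a low cluster, and the genes share their libraries, depth and batch adjustment, so these r are a description of likeness only. According to the study, K5 and K14 tumours arose on the back, where the inducer had been applied, and Ivl lesions on the back, paws, ears and lips. The site of each tumour is not in the labels, and its part in the levels of Hoxa9 and Esr1 was not tested.

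**Figure D4:**
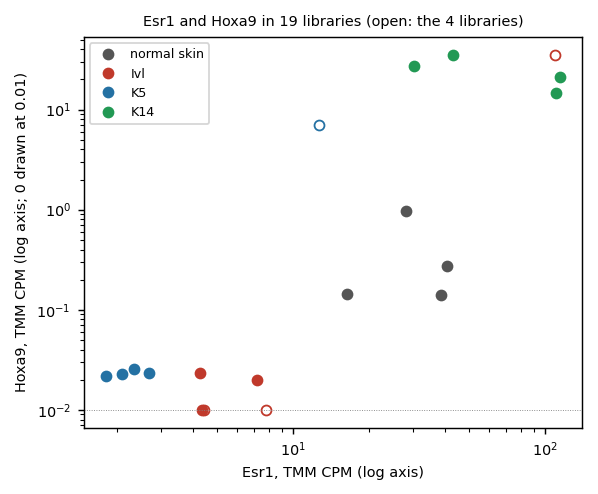
Esr1 (x axis) against Hoxa9 (y axis) in 19 libraries, TMM-scaled CPM on log axes, with Hoxa9 values of 0 drawn at 0.01 and open points for the 4 libraries with the batch trace. The 4 K14 tumours, Ivl replicate 1 and K5 replicate 1 lie above 6 CPM of Hoxa9, and the other 9 tumours lie at the bottom left.

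Esr2 (ENSMUSG00000021055, chr12:76120419-76177259, minus strand), the second oestrogen receptor, was scarce in skin and all but absent from K5/K14 tumours. The 4 skin libraries held 66, 135, 43 and 31 counts, or 0.870, 1.52, 0.403 and 0.302 CPM. None of the 9 K5/K14 libraries held more than 3 counts, and 3 of them held 0. Set against a floor of 3 counts per library, the skin mean of 0.773 ± 0.554 (SD, n = 4) CPM was at least 11.8-fold higher. The fitted log2 fold change, which depends on the prior count, was -4.86 ± 0.78 (SE, edgeR adjusted p = 4.8e-05) over 19 libraries and -4.67 ± 0.72 (SE, edgeR adjusted p = 5.0e-05) over 15. Ivl tumours held between 0 and 38 counts, with a lowest, median and highest value of 0, 0.256 and 0.624 CPM, and overlapped with skin. Their log2 fold change against skin was -1.46 ± 0.76 (SE, edgeR adjusted p = 0.13) over 19 libraries and -2.46 ± 0.88 (SE, edgeR adjusted p = 0.027) over 15, where the call was lost without skin replicate 2, Ivl replicate 4 or Ivl replicate 5 (edgeR adjusted p = 0.061 to 0.081).

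Pgr (ENSMUSG00000031870, chr9:8899833-8968611, plus strand), a classical target gene of the oestrogen receptor as well as the receptor for progesterone, was present in skin and low in most tumours. Skin held 4.38, 3.15, 8.05 and 16.5 CPM. The K5 libraries held 0.461, 0, 0.203, 0.560 and 0.497 CPM. K14 libraries held 0.523, 0.207, 0.599 and 0.522 CPM, so every K5/K14 value lay below every skin value. Pgr fell in K5/K14 tumours (log2 fold change -4.33 ± 1.15 SE, edgeR adjusted p = 0.0039, and -4.35 ± 0.77 SE, edgeR adjusted p = 2.2e-04 over 15 libraries). The K5 and K14 ranges of Pgr overlapped (log2 difference of K5 from K14 -0.42 ± 1.4 SE), and those of Esr1 did not. Ivl replicates 1 to 6 held 0.0154, 7.78, 1.93, 0, 0 and 0.289 CPM, with replicates 2 and 3 far above the other four and replicate 2 within the skin range. The Ivl tumours did not pass the test over 19 libraries (-2.26 ± 1.25 SE, edgeR adjusted p = 0.15), but did without replicate 2 (-4.14, edgeR adjusted p = 0.012). The 15 libraries passed (-6.30 ± 1.31 SE, edgeR adjusted p = 0.0011), but the size of that fold rests on 15 counts in Ivl replicate 6, as the other 2 Ivl tumours held 0. Leaving out 1 of the 15 libraries moved it between -11.9 and -5.73, with Ivl replicate 6 left out for the first, and the call held throughout (edgeR adjusted p = 2.9e-04 to 0.0055). By model, the K14 call against skin (-4.11, adjusted p = 0.045) was lost when any 1 of 11 libraries was left out (edgeR adjusted p = 0.051 to 0.099).

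Nr3c1 (ENSMUSG00000024431), the receptor through which glucocorticoids act, was the most abundant of the 5 steroid receptors followed here, per exon kilobase of skin RNA. Skin libraries held 98.0, 163, 134 and 144 CPM. K5 libraries held 43.7, 51.4, 70.2, 71.6 and 72.3 CPM. K14 libraries held 67.2, 59.8, 82.4 and 77.4 CPM, all below the lowest skin value. Nr3c1 fell in K5/K14 tumours by 1.03 ± 0.20 (SE, edgeR adjusted p = 2.4e-04) on the log2 scale, and the 15 libraries gave -0.97 ± 0.13 (SE, edgeR adjusted p = 1.2e-05). In Ivl tumours the lowest, median and highest levels were 66.8, 75.7 and 148 CPM, the 2 highest in replicates 2 and 3. The Ivl log2 fold change was -0.59 ± 0.22 (SE, edgeR adjusted p = 0.038) over 19 libraries. That call was lost without any 1 of skin replicates 2 to 4 or Ivl replicates 1 and 4 to 6 (edgeR adjusted p = 0.063 to 0.12). Over 15 libraries the value was -0.96 ± 0.17 (SE, edgeR adjusted p = 2.5e-04).

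Nr3c2 (ENSMUSG00000031618, chr8:76899442-77245012, plus strand), the aldosterone receptor, which glucocorticoids also bind, was lower in tumours as well. Skin libraries held 5.85, 11.4, 6.31 and 6.28 CPM. The K5 libraries held 1.76, 0.886, 0.948, 1.31 and 0.886 CPM. K14 libraries held 1.63, 1.06, 0.934 and 1.15 CPM, and no value of either reached the lowest skin value. The log2 fold change of K5/K14 against skin was -2.67 ± 0.50 (SE, edgeR adjusted p = 1.9e-04) over 19 libraries and -2.76 ± 0.24 (SE, edgeR adjusted p = 1.3e-07) over 15. Ivl tumours split, with 5.43 and 5.94 CPM in replicates 2 and 3, close to skin, and 0.292 to 1.66 CPM in the other four. Their fold change was -1.55 ± 0.55 (SE, edgeR adjusted p = 0.035). The call was lost without any 1 of skin replicates 2 and 3 or Ivl replicates 4 to 6 (edgeR adjusted p = 0.052 to 0.12). Over 15 libraries the value was -2.64 ± 0.34 (SE, edgeR adjusted p = 1.1e-05). An exon of Nr3c2 overlaps a noncoding gene on the other strand, Gm10649. The libraries were strand-specific, but the strand setting of the counting is not given in the sources used here.

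**Figure D5:**
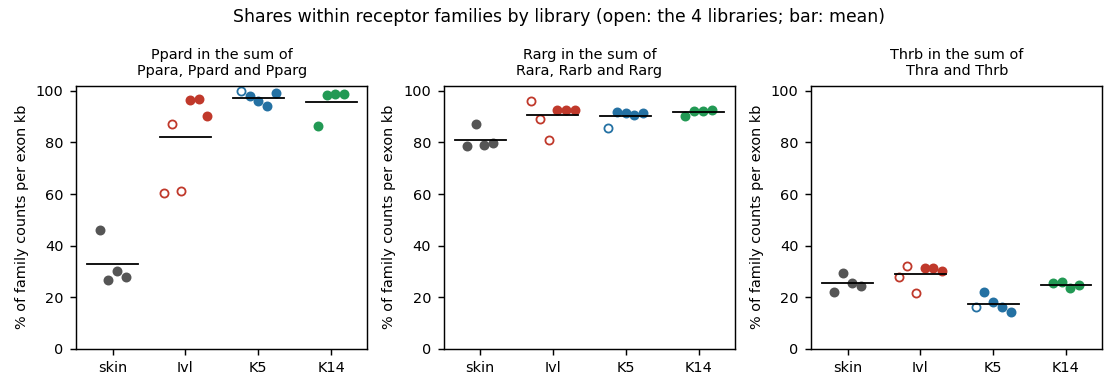
Share of Ppard, Rarg and Thrb in the summed counts per exon kilobase of their closest relatives, in percent of that sum, 1 point a library in normal skin, Ivl, K5 and K14 groups, with the mean as a bar and open points for the 4 libraries with the batch trace. The Ppard share lies below 50% in all 4 skin libraries and above 60% in all 15 tumours.

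Ppard (ENSMUSG00000002250, chr17:28232700-28301474, plus strand), the PPAR of the epidermis, was the member that rose in every tumour group. Skin libraries held 40.7, 37.8, 46.6 and 40.6 CPM, a narrow range. K5 libraries held 265, 212, 256, 256 and 293 CPM. K14 libraries held 159, 165, 259 and 262 CPM. The lowest, median and highest Ivl values were 63.7, 163 and 231 CPM, the lowest in replicate 3. Each of the 15 tumours thus exceeded each skin library, as 13.2% of all genes did for Ivl and 16.7% for K5/K14 tumours. The log2 fold change was 1.99 ± 0.27 (SE, edgeR adjusted p = 2.3e-05) in Ivl and 2.51 ± 0.27 (SE, edgeR adjusted p = 1.5e-06) in K5/K14 tumours over 19 libraries. Over 15 it was 2.27 ± 0.21 (SE, edgeR adjusted p = 4.7e-07) and 2.49 ± 0.19 (SE, edgeR adjusted p = 4.1e-08). With library totals it was 1.25 (adjusted p = 6.0e-04) and 1.69 (adjusted p = 7.7e-06). Inside each library, Ppard made up 32.7% ± 9.12 (SD, n = 4) of the summed PPAR counts per kilobase in skin, 82.1% ± 16.8 (SD, n = 6) in Ivl and 96.6% ± 4.16 (SD, n = 9) in K5/K14 tumours. Pparg, which drives fat cell and sebocyte differentiation, made up 57.2% ± 8.78 (SD, n = 4) in skin and 2.87% ± 3.90 (SD, n = 9) in K5/K14 tumours. The summed levels of 6 adipocyte markers ran from 131 to 429 CPM in skin and 3.77 to 106 CPM in K5/K14 tumours, and those of 6 basal keratinocyte markers from 3799.6 to 7768 CPM in skin and 42784 to 66514 CPM in K5/K14 tumours. Their part in the Ppard values was not tested. In bulk tissue fewer cells of a type and less RNA per cell cannot be told apart.

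Of all genes tested, 20.4% rose and 15.5% fell in Ivl tumours, and 23.2% rose and 38.9% fell in K5/K14 tumours. These shares stand beside the counts of the gene and marker lists from here on. Of 12 PPAR targets and partners tested, 2 rose and 0 fell in Ivl tumours, and 2 rose and 4 fell in K5/K14 tumours (median log2 fold changes 0.04 and -0.07). Those that rose in both were Fabp5, which carries fatty acids in keratinocytes and can deliver them to PPAR delta, and Hadha, an enzyme of fatty acid oxidation. For Fabp5 the log2 fold changes were 3.26 ± 0.41 (SE, edgeR adjusted p = 2.0e-05) and 3.6 ± 0.41 (SE, edgeR adjusted p = 1.9e-06). For Hadha they were 0.51 ± 0.14 (SE, edgeR adjusted p = 0.0079) and 0.65 ± 0.13 (SE, edgeR adjusted p = 4.6e-04), and turned to -0.19 and -0.16 with library totals. Fabp5 stood at 765 CPM in skin and 9288 in K5/K14 tumours. The genes that fell in K5/K14 tumours were led by Pdk4, a PPAR-induced kinase that spares glucose (-3.16, adjusted p = 0.0014), the lipase Lpl (-3.16, adjusted p = 0.0016) and the fatty acid transporter Cd36 (-4.12, adjusted p = 0.0025), the latter pair abundant in fat cells.

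Rarg (ENSMUSG00000001288, chr15:102234938-102257517, minus strand), the main retinoic acid receptor of epidermis, overlapped between skin and every tumour group. Skin libraries held 120.4, 163, 133 and 125 CPM. K5 libraries held 132, 150.2, 160.2, 159 and 153 CPM. K14 libraries held 165, 161, 154 and 165 CPM. Ivl libraries held 137, 162 and 199 CPM at the lowest, median and highest. The log2 fold change was 0.28 ± 0.11 (SE, edgeR adjusted p = 0.057) in Ivl and 0.20 ± 0.11 (SE, edgeR adjusted p = 0.10) in K5/K14 tumours with TMM scaling, but -0.42 (adjusted p = 0.010) and -0.61 (adjusted p = 1.8e-04) with library totals, so its direction rests on the scale. With TMM scaling it passed in Ivl tumours without skin replicate 2 or Ivl replicate 3 (edgeR adjusted p = 0.022 to 0.026) and in K5/K14 tumours without skin replicate 2 (0.029). Over 15 libraries it passed in both (0.27 ± 0.10 SE, edgeR adjusted p = 0.040, and 0.23 ± 0.08 SE, edgeR adjusted p = 0.028), but the Ivl call was lost without any 1 of 6 libraries (edgeR adjusted p = 0.082 to 0.17) and the K5/K14 call without any 1 of skin replicates 1, 3 and 4 and K14 replicate 1 (edgeR adjusted p = 0.050 to 0.11). Within the family, Rarg made up 81.1% ± 4.16 (SD, n = 4) of the retinoic acid receptor counts per kilobase in skin and 90.9% ± 2.09 (SD, n = 9) in K5/K14 tumours. Its relative Rara fell in both tumour groups (-0.89, adjusted p = 0.017, and -0.99, adjusted p = 0.0025). Of 18 genes of retinoid metabolism and response, 8 rose and 1 fell in Ivl tumours and 7 rose and 5 fell in K5/K14 tumours (median log2 fold changes 0.10 and -0.01). Carriers of retinoic acid were among those that rose, namely Crabp1 (2.98, adjusted p = 2.5e-05, and 4.75, adjusted p = 9.7e-07) and Crabp2 (2.70, adjusted p = 9.5e-05, and 2.83, adjusted p = 2.8e-05). Crabp1 was also lower in Ivl than in K5/K14 tumours (-1.78 ± 0.31 SE, edgeR adjusted p = 0.012, and -1.77 ± 0.27 SE, edgeR adjusted p = 0.0081 over 15 libraries). Those that fell in K5/K14 tumours were led by Rbp4, the carrier of retinol in blood (-3.68, adjusted p = 7.7e-04), the transglutaminase Tgm2 (-2.32, adjusted p = 9.4e-04) and Dhrs3 (-1.32, adjusted p = 1.0e-03). Dhrs3, which returns retinal to retinol, fell in Ivl tumours too (-0.87, adjusted p = 0.044).

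Vdr (ENSMUSG00000022479, chr15:97854425-97910630, minus strand), which keratinocytes need for differentiation and hair cycling, was lower in K5/K14 tumours. Skin libraries held 157, 97.6, 117 and 101 CPM. K5 libraries held 66.2, 58.7, 69.7, 65.9 and 59.4 CPM. K14 libraries held 90.3, 66.7, 60.6 and 68.1 CPM, all under the lowest skin value. The log2 fold change was -0.81 ± 0.19 (SE, edgeR adjusted p = 0.0015) over 19 libraries and -0.81 ± 0.13 (SE, edgeR adjusted p = 8.1e-05) over 15. In Ivl tumours Vdr spanned 47.5 to 122 CPM, with replicates 2 and 3 at 116 and 122 CPM within the skin range. The 19 libraries did not pass (-0.51 ± 0.21 SE, edgeR adjusted p = 0.066), but did without Ivl replicate 2, Ivl replicate 3 or K14 replicate 1 (edgeR adjusted p = 0.013 to 0.036). The 15 libraries passed too (-0.73 ± 0.17 SE, edgeR adjusted p = 0.0023). Of 7 genes of vitamin D metabolism and response tested, 1 rose and 0 fell in Ivl tumours, and 1 rose and 4 fell in K5/K14 tumours (median log2 fold changes -0.83 and -1.37). Cyp27b1, which makes the active hormone, fell in K5/K14 tumours (-2.25, adjusted p = 8.8e-04), as did the vitamin D hydroxylase Cyp27a1 (-1.74, adjusted p = 0.0017) and the vitamin D-induced calcium binder S100g (-4.22, adjusted p = 8.1e-04), the last from a skin mean of only 0.167 CPM. Dhcr7, which uses up the precursor of vitamin D, rose in both groups (0.51, adjusted p = 0.022, and 0.50, adjusted p = 0.0088), but stood at -0.19 and -0.30 with library totals.

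Thrb (ENSMUSG00000021779, chr14:17660261-18038090, plus strand), the minor thyroid hormone receptor of skin, was lowest in K5 tumours. Skin libraries held 20.4, 34.0, 26.0 and 28.3 CPM. K5 libraries held 8.99, 14.5, 12.1, 10.5 and 9.74 CPM. K14 libraries held 19.6, 20.8, 19 and 19.6 CPM. Ivl libraries held 20.7, 24.0 and 26.5 CPM at the lowest, median and highest. Every Ivl value thus lay above every K5 value. Thrb was higher in Ivl than in K5 tumours (log2 fold change 1.09 ± 0.14 SE, edgeR adjusted p = 0.0017), 1 of the 8 members besides Esr1 called, where 1.47% of all genes were. Over 15 libraries the value was 0.93 ± 0.16 (SE, edgeR adjusted p = 0.029), with 0.347% of all genes called, and the call was lost without any 1 of the 3 Ivl libraries or K5 replicates 3 to 5 (edgeR adjusted p = 0.066 to 0.12). Against skin, Thrb fell in pooled K5/K14 tumours (-0.86 ± 0.21 SE, edgeR adjusted p = 0.0017) and in K5 tumours (-1.29 ± 0.15 SE, edgeR adjusted p = 5.0e-06). It also fell in K14 tumours (-0.46 ± 0.16 SE, edgeR adjusted p = 0.027), a call lost without skin replicates 2 or 4 or K14 replicates 3 or 4 (edgeR adjusted p = 0.050 to 0.10). In Ivl tumours it did not pass (-0.19 ± 0.23 SE, edgeR adjusted p = 0.49), except with library totals (-0.87, adjusted p = 0.0093). The share of Thrb in the 2 thyroid hormone receptors was 25.4% ± 3.0 (SD, n = 4) in skin, 29.1% ± 3.97 (SD, n = 6) in Ivl, 17.3% ± 3.02 (SD, n = 5) in K5 and 24.9% ± 1.08 (SD, n = 4) in K14 tumours. Of 9 genes of thyroid hormone metabolism and transport, 1 rose and 1 fell in Ivl tumours, and 0 rose and 4 fell in K5/K14 tumours (median log2 fold changes -1.01 and -1.71). Dio2, the deiodinase that activates the hormone, rose in Ivl tumours (2.63 ± 0.70 SE, edgeR adjusted p = 0.0070) and was higher there than in K5/K14 tumours (2.12 ± 0.51 SE, edgeR adjusted p = 0.038, and 2.59 ± 0.54 SE, edgeR adjusted p = 0.059 over 15 libraries). The transporter Slc16a10 fell in both groups (-1.70, adjusted p = 0.014, and -1.71, adjusted p = 0.0036), and the lipogenic gene Thrsp fell in K5/K14 tumours (-3.82, adjusted p = 0.018).

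Between Ivl and pooled K5/K14 tumours, leaving Esr1 out, Esr2 was the 1 member of 8 called, with 2.36% of all genes called, and was higher in Ivl tumours (3.41 ± 0.75 SE, edgeR adjusted p = 0.029). Since no K5/K14 library held more than 3 counts of it, the Ivl mean was at least 4.24-fold higher against the floor of 3 counts. The call was lost without any 1 of Ivl replicate 2, K5 replicates 1, 4 and 5 or K14 replicates 3 and 4 (edgeR adjusted p = 0.051 to 0.058). Over the 15 libraries edgeR called 0 of the 8 members and 0.410% of all genes (Esr2 2.21 ± 0.87 SE, edgeR adjusted p = 0.34). Thrb did not pass between these groups (0.67 ± 0.18 SE, edgeR adjusted p = 0.059), but did without K14 replicate 1 or 2 (edgeR adjusted p = 0.037 to 0.046). Between Ivl and K14 tumours edgeR called none of these 8 members over 19 or 15 libraries. Over 19 it called 0% of all genes tested (3061 genes stood at an unadjusted p under 0.05, and DESeq2 called 226). The log2 difference of Esr1 there was -1.70 ± 0.91 (SE) over 19 libraries and -3.82 ± 0.50 (SE) over 15. By model against skin and leaving Esr1 out, 7 of 8 members were called in K5 tumours (55.7% of all genes) and 7 of 8 in K14 tumours (46.5%). In both, Ppard rose and Esr2, Pgr, Nr3c1, Nr3c2, Vdr and Thrb fell. The K14 call of Vdr was lost without skin replicate 1 or K14 replicate 3 (edgeR adjusted p = 0.060 to 0.077). For Ppard the difference of K5 from K14 tumours was 0.28 ± 0.26 (SE) on the log2 scale, for Nr3c1 -0.21 ± 0.23 (SE), and for Thrb -0.82 ± 0.15 (SE). Of the 8 members other than Esr1, which was chosen on this difference, Thrb alone had K5 and K14 libraries that did not overlap (4.44% of all genes did not).

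Of 36 other nuclear receptors tested, 4 rose and 3 fell in Ivl tumours, and 5 rose and 18 fell in K5/K14 tumours (median log2 fold changes -0.36 and -0.86). Over 15 libraries 4 rose and 13 fell in Ivl tumours, where 54.9% of all genes passed in either direction. Those that rose in both were led by Esrra, a regulator of mitochondrial genes related to the oestrogen receptors (1.1, adjusted p = 2.1e-05, and 1.07, adjusted p = 4.5e-06). The orphan receptor Nr2f6 rose as well (1.11, adjusted p = 3.5e-05, and 1.23, adjusted p = 4.3e-06). So did the oxysterol receptor Nr1h2 (0.49, adjusted p = 8.1e-04, and 0.65, adjusted p = 2.0e-05), which turned to -0.20 and -0.15 with library totals. Ppara, the PPAR of fat-burning tissues, fell in K5/K14 tumours (-3.43, adjusted p = 1.0e-04). In Ivl tumours Nr5a2 (-2.03, adjusted p = 0.030) and the oxysterol receptor Nr1h3 (-1.44, adjusted p = 0.036) fell. None of the 36 was called between Ivl and K5/K14 tumours.

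Of 19 coactivators and corepressors, 1 rose and 2 fell in Ivl tumours, and 1 rose and 13 fell in K5/K14 tumours, where 38.9% of all genes fell. Over 15 libraries 12 fell in Ivl tumours, where 54.9% of all genes passed in either direction. The median log2 fold changes over 19 libraries were -0.22 and -0.50. The acetyltransferase Crebbp fell in both groups (-1.18, adjusted p = 0.026, and -2.02, adjusted p = 1.1e-04). The corepressor subunit Tbl1xr1 did too (-0.67, adjusted p = 0.033, and -1.43, adjusted p = 2.0e-05), and the methyltransferase Nsd1 fell in K5/K14 tumours (-0.90, adjusted p = 2.8e-04). Tbl1xr1 was also higher in Ivl than in K5/K14 tumours (0.76 ± 0.19 SE, edgeR adjusted p = 0.043, and 0.22 ± 0.12 SE, edgeR adjusted p = 0.55 over 15 libraries). Hdac3, the deacetylase of the corepressor complex, rose in both (0.76, adjusted p = 2.3e-05, and 0.92, adjusted p = 1.5e-06), though with library totals it stood at 0.05 (adjusted p = 0.64) and 0.11 (adjusted p = 0.28). With TMM scaling all 8 chaperones and cochaperones of steroid receptors rose in Ivl tumours and 6 of 8 in K5/K14 tumours (median log2 fold changes 0.99 and 1.04), but with library totals 3 rose and 1 fell in Ivl and 4 rose and 2 fell in K5/K14 tumours. Examples with TMM scaling were Dnajb1 (1.18, adjusted p = 2.6e-05, and 1.38, adjusted p = 2.2e-06) and Bag1 (0.94, adjusted p = 3.9e-05, and 1.23, adjusted p = 1.5e-06). Another was Stip1, which hands client proteins between heat shock proteins (0.99, adjusted p = 2.3e-05, and 1.05, adjusted p = 3.1e-06).

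Genes known as targets of the oestrogen receptor in other tissues went both ways. Of 12, 4 rose and 2 fell in Ivl tumours, and 5 rose and 6 fell in K5/K14 tumours (median log2 fold changes -0.58 and -0.99). Those that rose in both groups included the EGF receptor ligand Areg (3.62, adjusted p = 0.0037, and 5.14, adjusted p = 2.0e-04). The cyclin Ccnd1 rose in both as well (1.21, adjusted p = 0.0036, and 1.06, adjusted p = 0.0034). Xbp1 rose in K5/K14 tumours (0.75, adjusted p = 6.9e-04, but -0.04 with library totals). The secreted peptide Tff1 rose in Ivl tumours (3.35, adjusted p = 0.012) from a skin mean of 0.0142 to 0.176 CPM. Igf1 fell in both groups (-1.70, adjusted p = 0.023, and -1.19, adjusted p = 0.045), as did Ret (-1.16, adjusted p = 0.049, and -1.47, adjusted p = 0.0045). In K5/K14 tumours the chemokine Cxcl12 (-3.21, adjusted p = 0.0043), Igfbp4 (-1.36, adjusted p = 0.0042) and Myb (-2.22, adjusted p = 2.6e-04) fell. Myb was higher in Ivl than in K5/K14 tumours (1.65 ± 0.39 SE, edgeR adjusted p = 0.036, and 1.28 ± 0.46 SE, edgeR adjusted p = 0.28 over 15 libraries).

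Among 14 targets of the glucocorticoid and mineralocorticoid receptors, 5 rose and 1 fell in Ivl tumours, and 6 rose and 4 fell in K5/K14 tumours (median log2 fold changes 0.33 and 0.46), beside the lower Nr3c1 and Nr3c2. The genes that fell in K5/K14 tumours were led by Zbtb16 (-4.28, adjusted p = 2.2e-04), Klf9 (-2.02, adjusted p = 2.3e-04) and Tsc22d3 (-1.61, adjusted p = 0.0039). Klf9 fell in Ivl tumours as well (-1.12, adjusted p = 0.044). Those that rose in both groups included the cornified envelope enzyme Tgm1 (2.55, adjusted p = 1.8e-05, and 2.26, adjusted p = 5.8e-06), a gene of differentiating keratinocytes. The sodium channel subunit Scnn1a rose in both as well (1.80, adjusted p = 5.6e-05, and 1.68, adjusted p = 4.0e-05). Nfkbia, an inhibitor of NF-kappaB, rose in Ivl tumours (1.23, adjusted p = 0.0031) and the metallothionein Mt1 in K5/K14 tumours (1.19, adjusted p = 0.0011). Of 13 genes of steroid metabolism tested, 4 rose and 0 fell in Ivl tumours, and 4 rose and 5 fell in K5/K14 tumours (median log2 fold changes -0.27 and -0.30). Hsd17b2, which inactivates oestradiol and testosterone, rose in both (1.78, adjusted p = 0.0011, and 2.32, adjusted p = 4.9e-05). So did the testosterone reductase Srd5a1 (0.88, adjusted p = 2.6e-04, and 1.27, adjusted p = 3.2e-06). In K5/K14 tumours Hsd17b1, which makes oestradiol (-2.02, adjusted p = 0.0032), Hsd11b2, which shields Nr3c2 from glucocorticoids (-2.47, adjusted p = 9.0e-04), and Srd5a2 (-4.94, adjusted p = 4.2e-04) fell, from skin means of 0.196, 1.88 and 0.136 CPM. Cyp11a1, the first enzyme of steroid synthesis, rose in K5/K14 tumours (2.27, adjusted p = 0.0015). Cyp11b1 rose in Ivl tumours (3.28, adjusted p = 0.0087) from 0.0289 to 0.292 CPM.

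The make-up of the tissue moved with these differences, and its part in them was not tested. Of 6 basal keratinocyte markers 4 rose in Ivl and 6 in K5/K14 tumours, and all 6 differentiated keratinocyte markers rose in both. The 6 skeletal muscle markers summed to 2218 to 6798 CPM in skin, 5.76 to 462 CPM in K5/K14 tumours and 4.72 to 4044 CPM in Ivl tumours, and all 6 fell in K5/K14 tumours. Ivl replicates 2 and 3, in which Nr3c1, Nr3c2 and Vdr lay near skin and Pgr was highest, held 4044 and 1403 CPM of them, beside at most 491 CPM in the other Ivl tumours. The 4 Schwann cell markers stood at 54.5 to 83.5 CPM in skin, 58.3 and 48.2 CPM in these 2 tumours and no more than 22.4 CPM in any other tumour. Both tumours carry the batch trace. Mean Nr3c2 of the 4 libraries with that trace lay near that of the other 15, skin included (3.57 and 3.75 CPM by library totals). K14 replicate 1, with 462 CPM of muscle markers, held 1.63 CPM of Nr3c2 and 90.3 CPM of Vdr, the highest Vdr of the K5/K14 tumours. Both values lay below every skin library. The 7 hair follicle markers summed to 87.4 to 2548 CPM in skin, 9.05 to 1449 in Ivl and 9.04 to 1030.4 CPM in K5/K14 tumours, and the 7 fibroblast markers to 839 to 18449, 1483 to 10870.1 and 3795 to 15019.7 CPM. The 2 K14 tumours with the most Esr1 held the least fibroblast signal of their group. The mammary gland, rich in Esr1 and Pgr, lies under the skin of female mice. Its 5 measured markers summed to 33.3 to 71.5 CPM in skin, 27.9 to 63.0 CPM in Ivl, 6.08 to 27.4 CPM in K5 and 9.08 to 22.3 CPM in K14 tumours. The milk protein genes were at or near 0, with Lalba at 0 in all skin libraries and Wap at 0 in all Ivl and K5 libraries. With the milk protein genes so low, the summed signal says little about how much mammary tissue a sample held. The part of mammary tissue in the Esr1 and Pgr levels was not tested.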

How the data were processed

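RNA of 15 fresh frozen tumours and 4 normal skins was sequenced as strand-specific, poly(A)-selected, paired-end libraries. According to the study's methods and the submitters' notes, the authors trimmed reads (Trim Galore, FastQC 0.11.8), aligned them to GRCm38 with HISAT2 2.1.0, counted them per gene of Ensembl release 100 with featureCounts of Subread 1.6.3 and adjusted the counts for sequencing batch with ComBat-seq. The deposited values are therefore estimated counts, all whole numbers. Batch adjustment can move levels and shrink the spread, and which library belonged to which batch is not in the labels. Genes that reached 5 counts in 1 or more libraries (32031 of 34807) were tested with the quasi-likelihood test of edgeR 4.0.16 in R 4.3.3, with TMM scaling and Benjamini-Hochberg adjustment over all genes. Groups came from the labels. Contrasts with K5 and K14 pooled used a 3-group model and the others a 4-group model. Among 37 pairs of libraries of 1 group none agreed within sampling noise. Alternatives were DESeq2 1.42.0, other size factors and filters, leaving out libraries and, chosen after seeing the data, library totals and leaving out libraries within the 15. Tests were checked on simulated data. Named genes were the members, the up to 3 genes per list and direction with the smallest adjusted p, those called between Ivl and K5/K14 tumours, and the 5 most like Esr1. Some genes of these lists are not reported here by name. The members and lists were chosen with earlier results of these data known. Promoters are RefSeq's, and gene positions and exon lengths come from GENCODE release M21, also GRCm38.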

Additional observations from a re-analysis of the deposited data

Results flagged for a closer look

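Of 36 member and group combinations with 4 to 6 libraries, 5 held a value far from the others of its group, where chance gives about 1 in 20. Esr1 was 109.5 CPM in Ivl replicate 1 and 12.7 CPM in K5 replicate 1, each above all others of its group. Both belong to the 4 libraries with the batch trace and both held Hoxa9. Ppard was 63.7 CPM in Ivl replicate 3, the lowest of the tumours and another of these 4 libraries, which also held 1403 CPM of skeletal muscle markers. Nr3c2 was 11.4 CPM in skin replicate 2, the skin library with the most muscle signal (6798 CPM). Pgr was 0.207 CPM in K14 replicate 2, below the other three K14 libraries. Between tumour models, Esr2 was higher in Ivl than in K5/K14 tumours (log2 fold change 3.41 ± 0.75 SE, edgeR adjusted p = 0.029) and Thrb higher in Ivl than in K5 tumours (1.09 ± 0.14 SE, edgeR adjusted p = 0.0017). Over the 15 libraries Esr2 did not pass (edgeR adjusted p = 0.34), and the Thrb call was lost without any 1 of 6 libraries. The part of batch or of other cells in these values was not tested.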

How the results depend on the processing

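Over 9 alternatives besides leaving out 1 library, 587 member values were counted as the same, 26 gained a call, 8 lost one and 27 turned. Those counted as the same kept their direction and side of the threshold, except for K5 against K14, which had no test. There a value was counted as the same if it moved by less than the spread within those groups, whatever its direction. Which libraries enter and how they are scaled moved the counts most. In Ivl tumours against skin 3 members were called, but 7 with library totals, 8 with library totals over the 15 libraries, 7 over the 15 libraries with TMM, 6 with the 4 libraries as a covariate, and 1 to 5 when 1 library was left out. In K5/K14 tumours the count stayed at 7 or 8 throughout. Between Ivl and K5/K14 tumours 1 was called, but 2 with DESeq2 or library totals, 0 over the 15 libraries with either scaling, 0 with the covariate and 0 to 2 when 1 library was left out. Of all 32031 genes tested, edgeR called 756 there and DESeq2 2133. Between Ivl and K5 tumours 1 was called, 3 with DESeq2 and 1 to 2 when 1 library was left out. Here edgeR called 470 of all genes and DESeq2 3206, so the background rose with the member count. Between Ivl and K14 tumours none was called, but 1 over the 15 libraries with either scaling. It was Esr1, which was chosen on its K14 level, with 0 of the other 8 called, and with TMM it was lost without Ivl replicate 5. In K14 tumours against skin 7 were called, but 9 over the 15 libraries with TMM, 8 with library totals over 19 or 15 libraries, and 4 to 7 when 1 library was left out. In K5 tumours against skin 8 were called, but 9 with library totals over 19 or 15 libraries, and 7 to 8 when 1 library was left out. These counts include Esr1, which was chosen on its K5 and K14 levels, so its calls in those groups are not read as a result. Of the other 8 members, 7 were called in K5 tumours against skin over 19 libraries and 7 over 15 with TMM. In K14 tumours against skin 7 of these 8 were called over 19 libraries and 8 over 15. The share of all genes called moved as well. In Ivl tumours against skin it was 35.9% over 19 libraries and 54.9% over 15. In K5/K14 tumours it was 62.2% and 66.2%, and between Ivl and K5/K14 tumours 2.36% and 0.410%. Over 19 libraries it was 55.7% in K5 and 46.5% in K14 tumours against skin. Apart from the DESeq2 counts above, the numbers of genes called under the other settings are not given, so the member counts there cannot be set against them. The cause of these moves was not tested, beyond the fewer libraries of some fits.

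With library totals the log2 fold change turned for Esr1 to -0.61 (K5/K14 against skin), Rarg to -0.42 (Ivl against skin) and -0.61 (K5/K14 against skin) and -0.69 (K5 against skin) and -0.52 (K14 against skin). With library totals over 15 libraries the log2 fold change turned for Esr1 to -0.50 (K5/K14 against skin), Pgr to -2.04 (Ivl against K5/K14) and -1.71 (Ivl against K5) and -2.30 (Ivl against K14), Nr3c1 to -0.055 (Ivl against K5/K14) and -0.14 (Ivl against K14), Nr3c2 to -0.12 (Ivl against K14), Vdr to -0.12 (Ivl against K14), Rarg to -0.60 (Ivl against skin) and -0.58 (K5/K14 against skin) and -0.023 (Ivl against K5/K14) and -0.65 (K5 against skin) and -0.52 (K14 against skin) and -0.085 (Ivl against K14). With the 15 libraries the log2 fold change turned for Pgr to -1.95 (Ivl against K5/K14) and -1.65 (Ivl against K5) and -2.19 (Ivl against K14), Nr3c1 to -0.050 (Ivl against K14), Vdr to -0.0081 (Ivl against K14). With the 4 libraries as a covariate the log2 fold change turned for Pgr to -1.05 (Ivl against K5/K14) and -0.59 (Ivl against K5) and -1.49 (Ivl against K14). Of these, the Rarg values against skin passed the test. Leaving out 1 library gave -0.27 to 0.36 for Esr1 (K5/K14 against skin), -0.030 to 2.11 for Pgr and -0.030 to 0.065 for Rarg (Ivl against K14).

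Replicate numbers did not pair the libraries: over 25 pairs with the same number the deviations from the group means correlated with a median r of -0.01 (-0.48 to 0.39), and 9 exceeded 0.1. Over 109 pairs with different numbers the median r was -0.01 (-0.80 to 0.66), and 40 exceeded 0.1. With a replicate block 1 member was called in Ivl and 7 in K5/K14 tumours against skin, 0 between Ivl and K5/K14, 7 in K5 and 6 in K14 tumours against skin, 1 between Ivl and K5 and 0 between Ivl and K14 tumours. Esr2 and Pgr rest on few counts in most tumours, which limits their folds.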
